A study of Mus musculus with 2 samples.

Results

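The genes described here are the 4 mouse Notch receptors, Notch1, Notch2, Notch3 and Notch4, and their 5 canonical ligands, Dll1, Dll3, Dll4, Jag1 and Jag2. They were chosen by symbol, and a gene absent from the authors' deposited gene table was taken to have no Ring1b interval within 10 kb. Of the 9 genes, 4 were in that table, which lists 3993 genes. Ring1b is the ubiquitin ligase subunit of Polycomb repressive complex 1, and the study mapped it by chromatin immunoprecipitation and sequencing in dental pulp of the mouse incisor, a tooth that grows throughout life. The study asks how mesenchymal stem cells of this tooth become transit amplifying cells. All cells came from CD1 mice at postnatal day 5 that had received 1 intraperitoneal dose of EdU, a label of DNA synthesis, at 3.3 µg per g body weight 24 h earlier, and EdU-positive cells were sorted. By the labels, 1 sample is Ring1b ChIP and 1 is input DNA from the same kind of cells. No genetic change or further treatment is labelled.

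Notch receptors are membrane proteins that are cleaved after binding a Delta-like or Jagged ligand on a neighbouring cell. The freed intracellular domain enters the nucleus, joins the DNA-binding protein Rbpj and turns on targets such as the Hes and Hey repressors. The pathway takes part in cell fate choices in many tissues, the tooth included, and in the sprouting of blood vessels. Mammalian Polycomb complexes are known to gather at CpG-rich promoters.

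The deposited tables hold 2 sets of ChIP intervals, whose headers name them replicates 1 and 2. They are called run 1 and run 2 here because the labels describe a single ChIP sample. Whether the 2 sets came from separate libraries or animals is not stated in the sources used here. The 2 sets were counted as 1 sample, so there is no SD and no p-value. Run 1 had 465 intervals with heights up to 9, and run 2 had 3938 with heights up to 66. A height is the authors' own summit value for an interval, on a scale that the sources used here do not give. Input values and sequencing depth were not analysed here, so ChIP was not set against input. In a sorted mixture of cells, a low height in every cell and a high height in a few cells cannot be told apart.

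Ring1b intervals were assigned to 2 of 4 receptors, Notch1 and Notch4, and to 2 of 5 ligands, Dll4 and Jag2. Together this was 4 of 9 genes (44.4%, exact Clopper-Pearson 95% interval 13.7 to 78.8%), beside 15.8% of all 21887 protein-coding genes. The interval, which covers counting error only, includes the share over all protein-coding genes. Notch1 was the highest of the 4, and it was the only one of them with an interval that spanned its own start. The Dll4 and Jag2 intervals closest to a start lay just inside those genes, whereas the one assigned to Notch4 lay beyond its 3′ end.

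Notch1, the receptor gene known for its part in T cell fate and in vessel growth, lies on chromosome 2 at 26457902 to 26503822 on the minus strand (mm10). Its single interval, chr2:26503330-26503910, was 581 bp wide and had a height of 9. It began 88 bp before the transcription start and ended 492 bp after it, with the summit at 158 bp after. The deposited table gives Notch1 a mean height of 9 in run 2 and 1 in run 1. Among the 3461 protein-coding genes in the table, whose median highest height was 4, 225 (6.50%) reached 9 or more. The Notch1 interval was narrower than most: its width was at or above that of 29.4% of all intervals, whose median was 670 bp. No other gene in the table shared it.

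Notch4, a receptor known chiefly from endothelial cells, lies on chromosome 17 at 34564295 to 34588543 on the plus strand. Its single interval, chr17:34592240-34592929, had a height of 4 and a width of 690 bp. The summit lay 28457 bp after the Notch4 start and past the end of the gene. The table assigns the same interval to Gpsm3, Pbx2, Ager and Rnf5. All of these starts were closer to the summit than that of Notch4, and the closest was Pbx2, which encodes a homeodomain cofactor of Hox proteins, at 281 bp inside the gene. Counted by the nearest protein-coding start, a rule chosen after seeing the data, Notch4 had no interval. A single interval placed downstream was found for 455 (13.1%) of the protein-coding genes in the table. The mean height at Notch4 was 4 in run 2 and 0 in run 1.

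Dll4, the Delta-like ligand known for restraining vessel sprouting, lies on chromosome 2 at 119325784 to 119335666 on the plus strand and had 2 intervals. Its start-proximal interval, chr2:119325959-119326445, had a height of 4 and covered bases 175 to 661 after the start, with the summit at 360 bp. The other, chr2:119322370-119323065, also had a height of 4, and its summit lay upstream, at −2904 bp from the start. Both summits also lie within Gm14207, a gene model on the opposite strand whose body overlaps the 5′ end of Dll4. The summit of the start-proximal interval was 53 bp from the start of Gm14207, closer than to that of Dll4, so this interval cannot be assigned to 1 of the 2 starts alone. In run 2 the mean height at Dll4 was 4, and in run 1 it was 2.

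Jag2, a Jagged ligand known from limb, palate and tooth development, lies on chromosome 12 at 112908590 to 112929495 on the minus strand. Its single interval, chr12:112928523-112929047, had a height of 4 and a width of 525 bp and covered bases 448 to 972 after the start. Its summit lay at 599 bp. The table also assigns it to Nudt14, whose start was 13222 bp away. Reference models of Jag2 extend to 112929812, upstream of the start the authors used, so the distance depends on the start taken, as do the CpG values given further on for the bases before it, all of which lie inside the longer model. The mean height at Jag2 was 4 in run 2 and 2 in run 1. Heights of 4 or less, as at Notch4, Dll4 and Jag2, were recorded for 1733 (50.1%) of the protein-coding genes in the table.

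**Figure D1:**
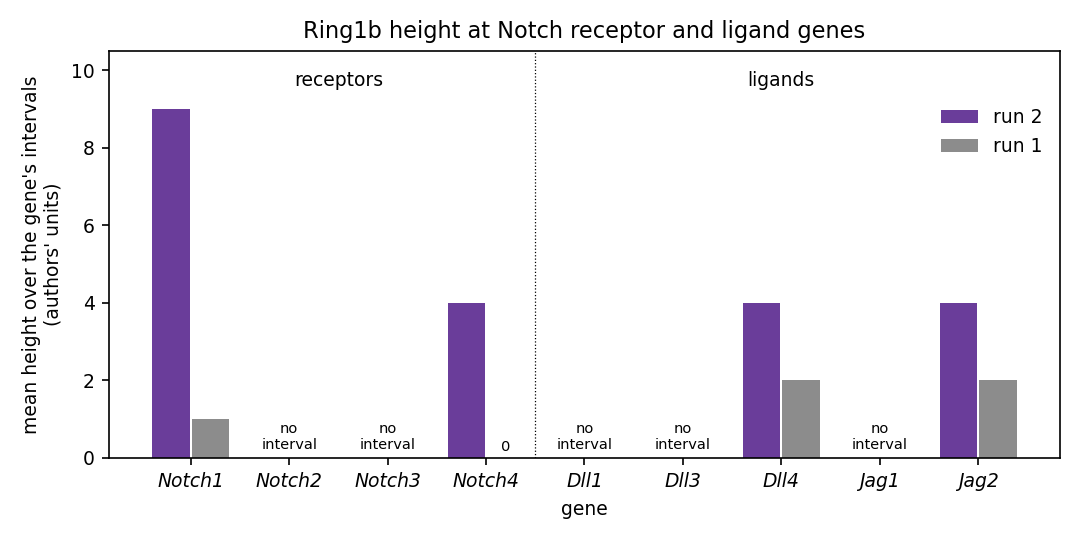
Mean height over each gene's intervals (y axis, the authors' units) for the 4 receptors and 5 ligands (x axis), with run 2 in purple and run 1 in grey. Run 2 reached 9 at Notch1 and 4 at Notch4, Dll4 and Jag2, while run 1 lay at 0 to 2, and the 5 genes marked "no interval" have no value in the table.

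**Figure D2:**
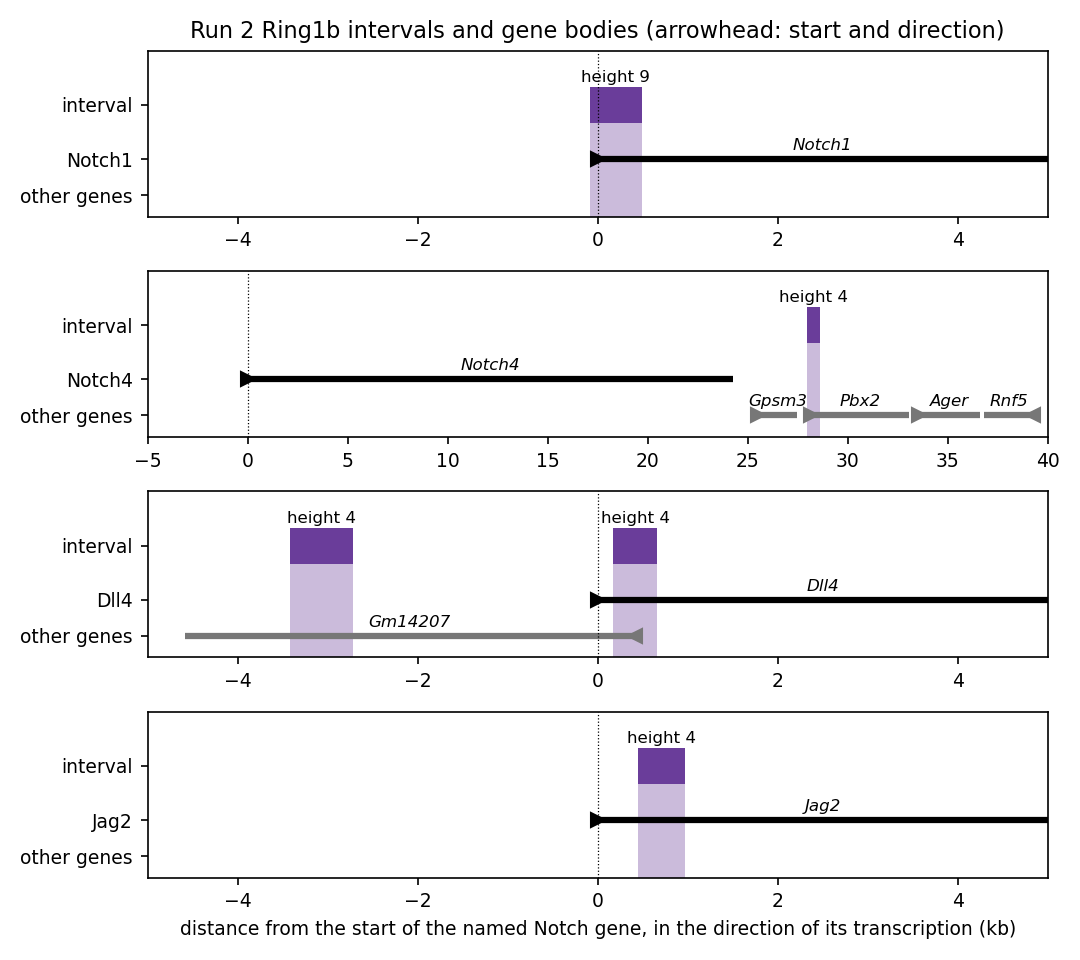
The 5 run 2 intervals (purple) over gene bodies, by distance in kb from the start of each Notch gene in its direction of transcription, with arrowheads at gene starts and other genes that share an interval in grey. The Notch1 interval spans the start, those of Dll4 and Jag2 nearest to a start lie just after it, and that of Notch4 lies at the start of Pbx2.

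The other 5 genes had no interval. These were the receptors Notch2 and Notch3, of which Notch3 is known from pericytes and vascular smooth muscle, and the ligands Dll1, Dll3 and Jag1. Dll3 is known to hold back Notch signalling within its own cell rather than to activate receptors on neighbours. None of them lay close to the 10 kb limit of assignment, though only intervals more than 10 kb away were searched for these 5 genes. The nearest called interval was 69.7 kb away at Dll3 and 154 kb away at Notch3. It was 245 kb away at Notch2 and 454 kb away at Dll1. For the 18426 protein-coding genes without an interval in the table, intervals at any distance were searched. Their median distance was 221 kb, with quartiles of 83.1 and 571 kb. Notch3, Notch2 and Dll1 lay between these quartiles and Dll3 lay below the lower one. Jag1, the ligand gene mutated in human Alagille syndrome, stood farther out. Its nearest interval was 3279 kb away, and 3.19% of the genes without an interval had a larger gap. On the near side of the limit, the Notch4 interval began 3697 bp past the gene's 3′ end.

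Receptors and ligands were then set side by side. The receptor heights were 9 and 4 and the ligand heights 4 and 4, with medians of 6.5 and 4, beside a median of 4 over all protein-coding genes in the table. Only Notch1 stood above the ligands in height. Distances from start to summit were 158 and 28457 bp for the receptors and −2904, 360 and 599 bp for the ligands. With intervals within 2.5 kb of the start, 1 of 4 receptors and 2 of 5 ligands had one, beside 10.4% of all protein-coding genes. The counts were the same within 1 kb, beside 9.72% of all, and within 5 kb, beside 11.2%. At heights of 5 or more, 1 of 4 receptors and 0 of 5 ligands had one, beside 7.9% of all, and the counts were the same at 6 or more, beside 4.25%. The genes share 1 labelled sample and are not replicates, and the difference between receptors and ligands was not tested.

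All 5 intervals came from run 2. Of these, 0 overlapped a run 1 interval, and run 1 alone gave 0 of 9 genes an interval, beside 1.73% of all protein-coding genes. The table nevertheless gives run 1 a mean height at genes where that run had no called interval. Of the protein-coding genes in the table, 3083 had run 2 intervals only. Their run 1 mean height was 0 in 52.7%, as at Notch4, 1 in 26.2%, as at Notch1, and 2 in 14.5%, as at Dll4 and Jag2. Notch1 was thus highest in run 2 but not in run 1. Among the 60 such genes whose highest height was 9, as at Notch1, 39 had a run 1 mean height of 1 or less.

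The 250 bases before each start were examined for CpG content, since this was not used to choose the genes. The sequences come from RefSeq (GRCm38.p6), in which all 9 genes were found, Dll1 with 2 starts. Those of the 4 genes with an interval are printed, with that of Notch2, which was CpG-dense and had none. They read 5′ to 3′ in the direction of transcription, with CpG dinucleotides in capitals. They span chr2:26503823-26504072 on the minus strand for Notch1, chr17:34564045-34564294 on the plus strand for Notch4, chr2:119325534-119325783 on the plus strand for Dll4, chr12:112929496-112929745 on the minus strand for Jag2 and chr3:98013288-98013537 on the plus strand for Notch2.
Notch1: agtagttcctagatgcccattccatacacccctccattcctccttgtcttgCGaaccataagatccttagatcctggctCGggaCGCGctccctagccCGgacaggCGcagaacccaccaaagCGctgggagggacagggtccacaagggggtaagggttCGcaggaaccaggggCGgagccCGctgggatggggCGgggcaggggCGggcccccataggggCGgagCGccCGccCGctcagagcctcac
Notch4: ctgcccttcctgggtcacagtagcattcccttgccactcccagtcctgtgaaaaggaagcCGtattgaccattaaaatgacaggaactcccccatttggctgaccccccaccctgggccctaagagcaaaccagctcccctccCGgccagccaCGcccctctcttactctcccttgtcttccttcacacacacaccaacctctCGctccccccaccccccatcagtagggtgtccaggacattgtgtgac
Dll4: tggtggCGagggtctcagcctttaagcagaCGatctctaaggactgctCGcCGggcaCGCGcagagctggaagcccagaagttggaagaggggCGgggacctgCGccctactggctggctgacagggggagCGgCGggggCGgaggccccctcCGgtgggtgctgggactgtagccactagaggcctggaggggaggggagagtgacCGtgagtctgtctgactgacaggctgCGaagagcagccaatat
Jag2: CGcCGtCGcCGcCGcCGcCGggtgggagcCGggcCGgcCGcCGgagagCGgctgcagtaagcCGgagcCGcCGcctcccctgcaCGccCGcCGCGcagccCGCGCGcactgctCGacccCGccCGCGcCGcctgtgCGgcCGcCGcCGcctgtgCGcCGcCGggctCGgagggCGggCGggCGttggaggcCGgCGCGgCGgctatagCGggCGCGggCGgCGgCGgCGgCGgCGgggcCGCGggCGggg
Notch2: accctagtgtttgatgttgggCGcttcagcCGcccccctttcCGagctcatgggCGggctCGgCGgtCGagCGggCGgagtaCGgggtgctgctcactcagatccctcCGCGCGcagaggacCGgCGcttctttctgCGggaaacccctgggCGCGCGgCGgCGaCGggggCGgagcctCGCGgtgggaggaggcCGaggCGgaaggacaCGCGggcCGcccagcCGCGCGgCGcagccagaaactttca

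Jag2 had 54 CpG in its 250 bases and a GC content of 87.2%, and it was among only 5 of the 21263 promoters of protein-coding genes with as many CpG or more. Notch1 had 16 CpG and Dll4 had 14. The last 88 of the Notch1 bases lay inside its interval, whereas the Dll4 and Jag2 intervals did not reach the printed bases. Notch4 had 4 CpG, the fewest of the 9 genes, and no interval near its own start. Promoters with an interval within 2.5 kb had a median of 21 CpG (n = 2313) and those without one a median of 8 (n = 18950). Thus Jag2 lay above the middle of the bound promoters, and Notch1 and Dll4 lay below it.

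CpG density did not separate the Notch genes with an interval at the start from those without. Notch2 had 34 CpG, more than Notch1 and Dll4, and no interval. Jag1 had 20, Notch3 had 17, the Dll1 starts had 21 and 13, and Dll3 had 10, all without an interval. Across protein-coding promoters, an interval lay within 2.5 kb of 33.3% of those with 30 to 56 CpG, the class of Jag2 and Notch2. The share was 22.3% with 20 to 29 CpG and 12.5% with 10 to 19, the class of Notch1 and Dll4. It was 5.87% with 5 to 9 CpG and 1.42% with 0 to 4, the class of Notch4. The core of the Rbpj binding motif, GTGGGAA, was searched on both strands of the same bases. It was in 0 of the 10 starts of the Notch genes and in 5.26% of all promoters, which says only that these letters are not in these windows.

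**Figure D3:**
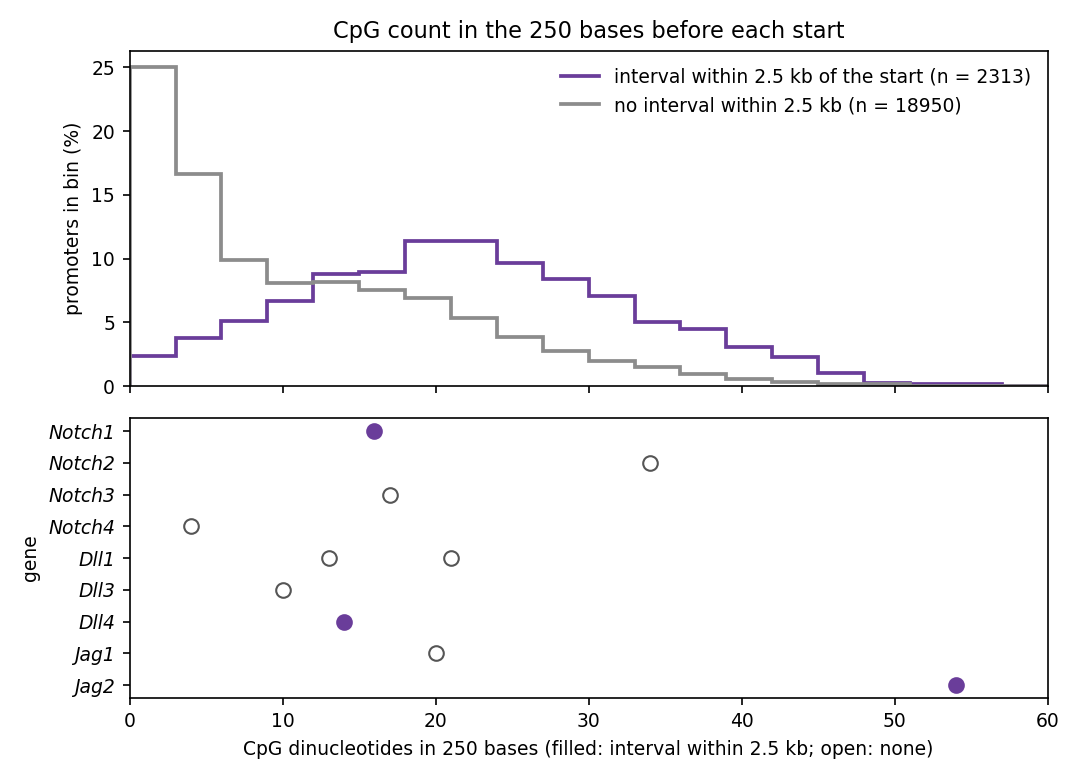
Distribution of the CpG count in the 250 bases before each start, for protein-coding promoters with (purple) and without (grey) an interval within 2.5 kb (top, percent of promoters in each bin), and the count at each start of the Notch genes (bottom, filled where an interval lay within 2.5 kb). Jag2 at 54 lies at the far right, and Notch2 at 34 has no interval, while Notch1 at 16 and Dll4 at 14 do.

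Beyond receptors and ligands, 69 other genes of the pathway in 8 classes were examined, of which 23 (33.3%) had an interval, beside 15.8% of protein-coding genes. The nuclear side held most of them. Corepressors had intervals at 9 of 12 genes. Among them, Cir1, a partner of Rbpj, had the largest height, 13, but that interval was closer to the start of Sp9. Ctbp2 and Tle1 reached 7 and Tle2 reached 6, all genes of corepressors that lack DNA binding of their own. The highest Ctbp2 summit was 203 bp after the start, and the Tle1 interval was closer to the start of C630043F03Rik than to that of Tle1. Within 1 kb of the start, 6 of 12 corepressors had an interval, at heights of 5 or more 5 of 12 and with run 1 alone 1 of 12. Ncor1 and Hdac1 were among those with none. Nuclear effectors and coactivators, a class that includes Rbpj and Rbpjl, had intervals at 5 of 10 genes. The count was 3 of 10 within 2.5 kb of the start or at heights of 5 or more. With run 1 alone the count was 1 of 10. Rbpj itself reached 8 in an interval of 1910 bp whose summit lay inside the gene, 33853 bp after the start. Maml1, a coactivator of the Notch complex, reached 7, Ep300, an acetyltransferase gene, reached 5, and Maml2 reached 3. Rbpjl, Crebbp and Kat2a had none. The Hes and Hey targets had intervals at 4 of 9 genes, Hes1 at 15, Hey2 at 6, Hes5 at 5 and Hes3 at 3, and not at Hes2, Hes6 or Hes7. This became 3 of 9 within 2.5 kb of the start or at heights of 5 or more, 2 of 9 at 6 or more and 0 of 9 with run 1 alone. Over all protein-coding genes the shares were 9.72% within 1 kb and 10.4% within 2.5 kb. They were 7.9% at heights of 5 or more, 4.25% at 6 or more and 1.73% with run 1 alone.

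The remaining classes hold genes whose products act on receptors and ligands, or further ligands, and their counts stand beside the same 15.8% of protein-coding genes. Genes of ligand endocytosis had intervals at 2 of 6, with the ubiquitin ligase gene Mib1 and the epsin gene Epn2 at 4, and Mib2, Neurl1a and Neurl1b had none. Receptor regulators had 2 of 10, with Fbxw7, which marks the intracellular domain for destruction, and Dtx2 at 3. The Dtx2 interval came from run 1 and that of Fbxw7 from run 2, so each run alone gave 1 of 10, as did starts within 2.5 kb. Over all protein-coding genes these shares were 1.73% with run 1, 14.8% with run 2 and 10.4% within 2.5 kb. Numb, Numbl and Dtx1 had none. Of the proteases and gamma-secretase subunits that cleave the receptors, 1 of 10 had an interval, Aph1b at 5, and Adam10, Adam17 and Furin had none. Aph1c, a close paralogue of Aph1b, had none, and how reads were divided between the copies was not tested. The glycosyltransferases that modify the receptors had 0 of 5, with Pofut1, Poglut1 and Lfng among them. The class labelled other ligands with EGF repeats had 0 of 7, with Dlk1, Dlk2 and Dner among them. Not all of its genes encode proteins with EGF repeats, so the label is broader than the repeats. Differences between the classes were not tested.

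**Figure D4:**
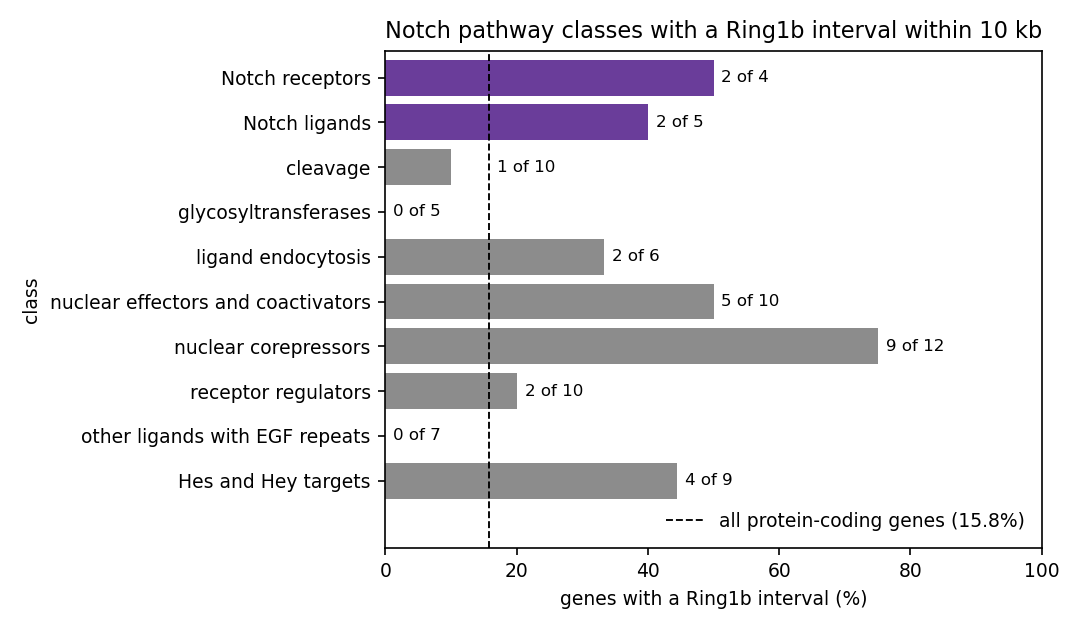
Percent of genes with a Ring1b interval within 10 kb (x axis) in each class of the Notch pathway (y axis), receptors and ligands in purple, with the count at each bar and the share of all protein-coding genes, 15.8%, as a dashed line. Corepressors stand highest at 9 of 12, and glycosyltransferases and the class labelled other ligands with EGF repeats are at 0.

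Ring1b intervals do not measure expression, so the labelled tissue could not be checked against marker levels. The counts of markers with an interval stand beside 15.8% of all protein-coding genes, and lists this short set wide limits. Markers of pulp mesenchyme had intervals at 5 of 6 genes (exact 95% interval 35.9 to 99.6%), Twist1 at 6, Prrx1 and Vim at 5 and Pdgfra at 4, and Col1a1 had none. The count stayed 5 of 6 within 1 kb of the start, beside 9.72% of all. It was 3 of 6 at heights of 5 or more, beside 7.9%, and 1 of 6 at 6 or more, beside 4.25%. With run 1 alone it was 0 of 6, beside 1.73%. The list was written by hand with earlier results of these data known, so its share is a description and not a test. Among 6 endothelial markers, 2 had one, with a height of 5 at Flt1 in run 2 and of 4 at Erg in run 1, and Pecam1, Cdh5 and Kdr had none. The Erg summit lay 22877 bp inside the gene, and the count was 1 of 6 for starts within 5 kb and for either run alone. Over all protein-coding genes these shares were 11.2% within 5 kb, 1.73% with run 1 and 14.8% with run 2. Pericyte and smooth muscle markers, which include Notch3 itself, had 0 of 5 (exact 95% interval 0 to 52.2%), with Pdgfrb, Cspg4 and Acta2 among them. Dental epithelium markers had 1 of 5 (20%, near the share of all genes), Trp63 at 3, with none at Krt14, Epcam or Cdh1. What share of the sorted cells was endothelial, the cell type best known for Notch4 and Dll4, was not tested.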

How the data were processed

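Ring1b ChIP-seq was analysed in EdU-sorted incisor pulp cells. Reads were handled with BWA and SICER on build mm10, per the submitters' processing notes; versions and settings are not given in the sources used here. The authors deposited a gene table whose heights are signal values of unstated scaling, and a track file. Its score for each summit is the same height, per the file headers, which name runs 1 and 2 as replicates 1 and 2. Interval starts were read as BED positions and are given 1-based; distances run from start to summit, as deposited.

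Python 3.11.15, numpy 2.4.6, pandas 2.3.3, scipy 1.17.1 and matplotlib 3.10.9 were used. The background was 21887 protein-coding genes of GRCm38.p6, and 3867 of 3993 deposited identifiers were found in that reference. Promoter sequences were found for 17492 of the background genes. Genes with an interval within 1, 2.5 or 5 kb of the deposited start, heights of 5 or more and of 6 or more, each run alone and nearest starts were tried. The search for intervals near starts was tested on simulated data.

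The genes and lists were chosen with earlier results of these data known. Named genes were all 9 Notch genes, genes sharing their intervals, and from each class and marker list up to 4 with an interval, by height, and 3 without; an item this rule takes is not reported here.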

Additional observations from a re-analysis of the deposited data

How the results depend on the processing

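No paired analysis was possible because each group had a single labelled sample. Heights were whole numbers with many ties, and without depth it is unknown how low an occupied gene could lie and still be missed. The 4 of 9 Notch genes with an interval became 3 with starts within 1, 2.5 or 5 kb and by nearest protein-coding start. They became 1 with a height minimum of 5 or of 6 and 0 when only run 1 was used. The 2 receptors became 1 with starts within 1, 2.5 or 5 kb, at both height limits and by nearest protein-coding start, the last chosen after seeing the data, and 0 with run 1 alone. The 2 ligands became 0 at both height limits and with run 1 alone. Near starts, the shares over all protein-coding genes were 9.72% within 1 kb, 10.4% within 2.5 kb and 11.2% within 5 kb. By nearest protein-coding start the share was 12.1%. The 23 pathway genes (33.3%) became 12 (17.4%) at 5 or more, 9 (13.0%) at 6 or more and 3 (4.35%) with run 1 alone. Over all protein-coding genes the share fell as well, from 15.8% to 7.9% and 4.25% at these height limits and 1.73% with run 1 alone. Run 2 alone kept 4 Notch genes and 22 pathway genes (31.9%), beside 14.8% of all. Losses follow from leaving out intervals by height, run or place. The Notch4 distance was 27945 bp from the nearest interval edge. Taking the interval nearest to the start changed no height or median of the 4 genes, and requiring a larger overlap between runs left 0 shared intervals.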
